A study of Homo sapiens with 8 samples.

Results

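The expression of 9 genes of the aldo-keto reductase and carbonyl reductase families was followed in human retinal pigment epithelial cells given all-trans-retinal, extracellular vesicles or both. The 9 genes, AKR1A1, AKR1B1, AKR1B10, AKR1C1, AKR1C2, AKR1C3, AKR7A2, CBR1 and CBR3, were taken by gene symbol from the 46427 genes of the deposited table. The cells were RPE-1, a human line immortalised with telomerase (hTERT). They were sequenced as 8 libraries, with 1 library for each condition. The 4 conditions at each time were 25 µM all-trans-retinal (atRAL) plus vesicles, atRAL alone, vesicles (EV) alone, and an untreated control, each applied to 2500000 cells for 1 h or 6 h. The vesicles came from tonsil-derived mesenchymal stem cells and were given at 2000000000 particles per ml.

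Aldo-keto reductases are soluble enzymes that use NADPH to reduce aldehydes and ketones to alcohols, and carbonyl reductases do the same from a separate protein family, the short-chain dehydrogenases. All-trans-retinal is the reactive aldehyde that photoreceptors release after light absorption, and its reduction to retinol by retinol dehydrogenases is a step of the visual cycle. Several aldo-keto reductases, above all AKR1B10, also reduce retinal, and AKR1B10 and the AKR1C genes are widely used as transcriptional targets of NRF2, the factor that responds to electrophiles in human cells.

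AKR1C1, AKR1C2 and AKR1C3 lie side by side on chromosome 10 and have coding sequences so alike that short reads can be hard to assign. The same stretch, bases 13 to 162 of each coding sequence in the GENCODE annotation of GRCh38, is shown. No other codon-aligned stretch of 150 coding bases held more differences between AKR1C1 and AKR1C2. Capitals mark the positions at which the 3 genes are not all the same.
AKR1C1: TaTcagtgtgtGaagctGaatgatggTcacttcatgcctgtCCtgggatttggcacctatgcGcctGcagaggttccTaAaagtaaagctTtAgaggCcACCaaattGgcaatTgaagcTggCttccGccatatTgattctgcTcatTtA
AKR1C2: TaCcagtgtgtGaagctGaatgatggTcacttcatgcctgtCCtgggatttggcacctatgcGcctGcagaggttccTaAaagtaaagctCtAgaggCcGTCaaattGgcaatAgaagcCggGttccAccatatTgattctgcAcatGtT
AKR1C3: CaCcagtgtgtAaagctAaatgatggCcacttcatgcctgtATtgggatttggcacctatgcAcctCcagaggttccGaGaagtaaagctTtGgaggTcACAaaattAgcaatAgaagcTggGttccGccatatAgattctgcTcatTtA
In this stretch of 150 bases AKR1C1 differed from AKR1C2 at 11 positions and from AKR1C3 at 18, and AKR1C2 differed from AKR1C3 at 23. Over the whole coding sequence of 972 bases, AKR1C1 and AKR1C2 were identical at 98.0% of positions, with 19 differences. AKR1C3 was 91.5% identical to AKR1C1 and 91.0% identical to AKR1C2. Of all 100-base windows of the chosen transcript, 32.9% in AKR1C2, 17.4% in AKR1C1 and 4.98% in AKR1C3 also occurred in a transcript of another gene. How the deposited counts treated reads that match more than 1 gene is not given in the sources used here, so the split of counts between AKR1C1 and AKR1C2 is uncertain. The shares were 2.01% for AKR1B10 and 0.396% for AKR7A2, and 0 for AKR1A1, AKR1B1, CBR1 and CBR3.

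**Figure D1:**
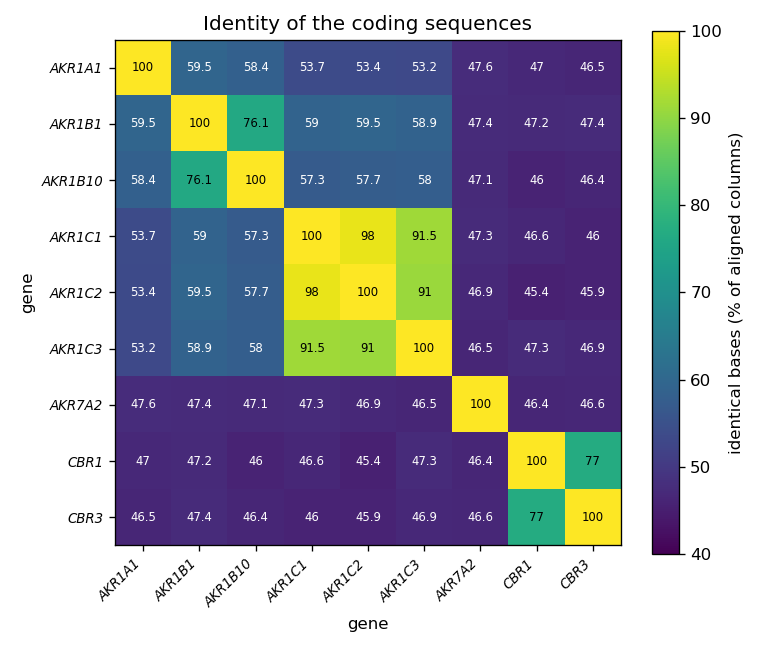
Identity of the coding sequences of the genes, as identical bases in percent of aligned columns, with genes on both axes. The AKR1C genes form the block of highest identity, with 98.0% between AKR1C1 and AKR1C2, while AKR1B1 and AKR1B10 share 76.1% and CBR1 and CBR3 share 77.0%.

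A RefSeq promoter window (build GRCh38.p14, 250 bases before to 50 after an annotated start of the gene) was at hand for 7 of the 9 genes, the exceptions being AKR1B10 and CBR3. The AKR1C2 window (chr10:5003808-5004107) lies inside the gene's span of 4987775 to 5018000. The start used for AKR1B1 is also inside its span. Windows are shown for AKR7A2 and AKR1C3, genes that passed a test below, with matches to the antioxidant response element core TGACNNNGC on either strand in capitals. The AKR7A2 window is on the minus strand at chr1:19312097-19312396.
AKR7A2: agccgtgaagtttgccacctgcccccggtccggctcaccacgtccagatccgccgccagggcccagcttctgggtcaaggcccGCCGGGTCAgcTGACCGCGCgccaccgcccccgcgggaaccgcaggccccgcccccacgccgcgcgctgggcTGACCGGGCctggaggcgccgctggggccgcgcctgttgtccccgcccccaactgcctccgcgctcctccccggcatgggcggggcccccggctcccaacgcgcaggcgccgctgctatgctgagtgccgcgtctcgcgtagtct
The AKR1C3 window is on the plus strand at chr10:5048531-5048830.
AKR1C3: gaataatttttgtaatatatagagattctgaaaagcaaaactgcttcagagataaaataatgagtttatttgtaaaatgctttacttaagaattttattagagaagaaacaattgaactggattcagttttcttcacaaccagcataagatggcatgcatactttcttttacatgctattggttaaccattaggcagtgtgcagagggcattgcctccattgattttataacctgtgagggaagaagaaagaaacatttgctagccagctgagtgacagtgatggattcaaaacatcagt
AKR7A2 held 3 matches to the core, whose first bases lie 167, 156 and 95 bases before the start. CBR1 held 1 match, 159 bases before the start, and the windows of AKR1A1, AKR1B1, AKR1C1, AKR1C2 and AKR1C3 held none. Sequence outside these windows was not searched, so a match elsewhere near a gene would not be seen. The AKR1C1 and AKR1C2 windows were 98.6% identical over their aligned bases. The core occurred in 13.3% of all 35116 promoter windows in the RefSeq table, and the AP-1 motif TGANTCA, found in 7.71% of them, occurred in none of the 7.

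The libraries held 45566237 to 71822269 counts. Of 11 marker genes of retinal pigment epithelium, 9 had a highest level under 1 FPKM (a level scaled to transcript length and library size), including RPE65, with 0 to 9 counts, and RLBP1, with 0 to 11 counts. The exceptions were MITF, at 5.13 to 8.48 FPKM, and OTX2, at 3.76 to 11.8 FPKM. Of 6 epithelial genes, the keratin genes KRT8 (281 to 386 FPKM) and KRT18 (219 to 321 FPKM) gave nearly all of a sum of 524 to 680 FPKM. KRT19 had 0 to 22 counts, EPCAM 0 to 4 and CDH1 0 to 7, so 3 of the 6 were near absent. The 7 mesenchymal markers summed to 2360 to 2910 FPKM, most of it from VIM. Among these markers, the epithelial label thus rests on KRT8, KRT18 and, at a lower level, KRT7, and the pigment epithelium label on MITF and OTX2. Of 7 lymphoid markers, which tonsil-derived material could carry, 4 had no count in any library. The others had 0 to 13 counts for PTPRC, 0 to 2 for CD3E and 0 to 42 for CD79A. At 6 h CD79A had 42 counts with atRAL plus vesicles, 23 with atRAL, 0 with vesicles and 9 in the control. PTPRC was highest in the 6 h control. No label says that libraries came from separate cultures, so p-values below measure only the spread between these libraries. The fits use libraries of other conditions for that spread, since no condition was repeated. In the fits of atRAL and EV effects within each time, it includes any difference in the EV effect with and without atRAL. The edgeR tests also draw on the spread of other genes.

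AKR1B1, CBR1 and AKR1A1 made up most of the reductase transcript pool. AKR1B1, aldose reductase, which turns glucose into sorbitol, had the highest median level at 50.9 FPKM over the 8 libraries, with a range of 46 to 63.9 FPKM. CBR1, which reduces quinones and prostaglandins, followed at a median of 47.2 FPKM (42.4 to 59.4 FPKM). AKR1A1, the general aldehyde reductase, had 31.3 FPKM (28.4 to 35 FPKM). The ranges of AKR1B1 and CBR1 overlapped, while that of AKR1A1 lay wholly below both. Together these 3 genes gave 77.2% to 81.5% of the summed level of the 9 genes, which was 156 to 187 FPKM per library.

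Next came AKR7A2, a reductase of succinic semialdehyde and of aflatoxin aldehydes, at a median of 14.4 FPKM (11.4 to 16 FPKM), and CBR3, a close relative of CBR1, at 13.6 FPKM (11.4 to 18.5 FPKM). Their ranges overlapped each other and lay below that of AKR1A1. AKR1C3, which makes testosterone from androstenedione and reduces prostaglandins, had 3.94 FPKM (3.4 to 7.99 FPKM), below both. AKR1B10 had 0.72 FPKM (0.566 to 2.23 FPKM), below AKR1C3 with no overlap. AKR1C2 and AKR1C1, which inactivate dihydrotestosterone and progesterone, were lowest at 0.0741 FPKM (0.0577 to 0.251 FPKM) and 0.0606 FPKM (0.0139 to 0.162 FPKM), and their ranges overlapped. The lengths implied by counts and FPKM were 7457 bases for AKR1C1 and 4122 bases for AKR1C2 at the median, against 1132 to 2603 bases for the other genes, so their FPKM values divide by long transcript models.

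**Figure D2:**
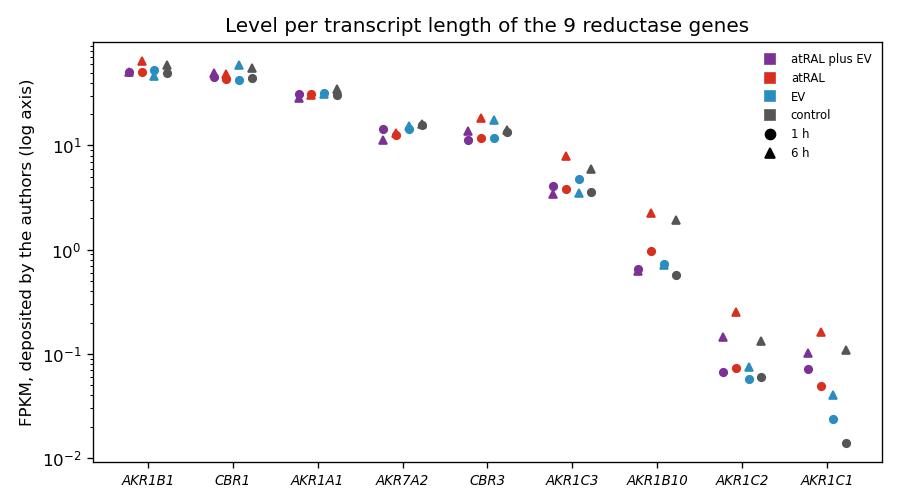
Deposited FPKM of the 9 genes on a log axis, 1 point per library, with colour for the treatment and shape for the time. AKR1B1, CBR1 and AKR1A1 lie between 28.4 and 63.9 FPKM in every library, and AKR1C1 and AKR1C2 stay at or under 0.251 FPKM.

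The 4 genes with the lowest levels also had the widest spread over the libraries in CPM (counts scaled to library size). The highest library exceeded the lowest 9.75-fold for AKR1C1, 3.95-fold for AKR1C2, 3.66-fold for AKR1B10 and 2.29-fold for AKR1C3. For AKR1A1, AKR7A2, AKR1B1, CBR1 and CBR3 the ratio was 1.18, 1.29, 1.38, 1.42 and 1.6. Counts ran from 7 to 74 for AKR1C1, 14 to 59 for AKR1C2, 64 to 255 for AKR1B10 and 252 to 667 for AKR1C3. Counting error is larger at few counts and can widen such ratios. All 9 genes passed the filter on low counts.

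The vesicle comparison at 6 h asks whether the genes differ between libraries with and without vesicles. Of the 9 genes, 2 fell, AKR1B10 and AKR1C3, and 0 rose, at an adjusted p under 0.05 (edgeR quasi-likelihood test, Benjamini-Hochberg over 17044 genes). Over all genes tested 0.61% fell, 1.09% rose and 1.7% were called in either direction. Before adjustment, 4 of the 9 genes had a p under 0.05, as did 18.6% of all genes. The median log2 fold change was -0.29 over the 9 genes and -0.006 over all genes.

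AKR1B10 (chr7:134527567-134541412), the aldo-keto reductase with the highest known activity on retinal, had 1.19 CPM with atRAL plus vesicles and 4.1 CPM with atRAL alone at 6 h. Without atRAL it had 1.33 CPM with vesicles and 3.47 CPM in the control. These values rest on 74, 254, 95 and 255 counts. Both libraries with vesicles lay far below both without, and the groups did not overlap. AKR1B10 fell with vesicles by 1.58 ± 0.25 on the log2 scale (SE, 2 libraries against 2, 95% interval -2.16 to -1, fold 0.335), with an adjusted p of 0.033 (edgeR).

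AKR1C3 (chr10:5048781-5107686) had 4.71 CPM with atRAL plus vesicles and 10.8 CPM with atRAL alone at 6 h. Without atRAL it had 4.76 CPM with vesicles and 7.73 CPM in the control. The libraries with vesicles were close to each other and both below those without. AKR1C3 fell by 0.95 ± 0.17 on the log2 scale (SE, 2 libraries against 2, 95% interval -1.33 to -0.56, fold 0.519), with an adjusted p of 0.041 (edgeR).

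Of 7 mesenchymal markers, genes that the cells giving the vesicles also express, 6 were tested, and 1 fell with vesicles at 6 h. It was PDGFRB, a growth factor receptor gene, with 8.38 FPKM with atRAL plus vesicles against 16.9 FPKM with atRAL, and 9.39 FPKM with vesicles against 17 FPKM in the control. Its log2 fold change was -0.89 ± 0.08 (adjusted p 0.0044, edgeR), and the call was lost without any one of the 1 h libraries (adjusted p up to 0.053). The median over the 6 was -0.3, with COL1A1 at -0.55 (adjusted p 0.077) and VIM at -0.05 (adjusted p 0.88, edgeR). VIM gave most of the list's sum, which at 6 h was 2360 FPKM with atRAL plus vesicles against 2790 FPKM with atRAL, and 2910 FPKM with vesicles against 2740 FPKM in the control. The part of these markers in the result was not tested. In RNA from whole cultures, fewer expressing cells and less RNA per cell cannot be told apart.

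The calls of AKR1B10 and AKR1C3 depend on the libraries and tests used. Over the 8 fits that leave out a library, the log2 fold changes were -1.78 to -1.38 for AKR1B10 and -1.19 to -0.7 for AKR1C3. Leaving out a 1 h library hardly moves a 6 h change, because each time has its own terms. Without a 6 h library the change is that of the only pair left at 6 h. The constant sign therefore adds nothing to the 6 h pairs. Both calls were lost when any one of the 1 h libraries, the 6 h atRAL library or the 6 h atRAL plus vesicle library was left out. They were also lost with no filter on low counts (adjusted p 0.093 and 0.11), in limma on log2(FPKM + 1) (0.072 and 0.091, with changes of -0.88 and -0.83 on that scale) and from the 6 h libraries alone (0.06 and 0.1).

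AKR1B1 had 88.2 CPM with atRAL plus vesicles and 112 CPM with atRAL alone, and 80.9 CPM with vesicles and 95.9 CPM in the control at 6 h. It did not overlap between the groups either, and its log2 fold change of -0.29 ± 0.07 had an adjusted p of 0.089 (edgeR). Leaving out the 6 h control or the 6 h vesicle library leaves only the pair with atRAL, with a log2 ratio of -0.34. In all, 3 of the 9 genes (AKR1B10, AKR1C3 and AKR1B1) had both vesicle libraries below both others, a pattern that 14.2% of all genes showed, and 0 had them above, against 13.3%.

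AKR1C1 and AKR1C2 also had lower values with vesicles at 6 h, on few counts, and did not pass. AKR1C1 had 49 counts with atRAL plus vesicles against 74 with atRAL, and 22 with vesicles against 57 in the control. Its groups overlapped once scaled, at 0.791 and 0.308 CPM with vesicles against 1.2 and 0.775 CPM without. The log2 fold change was -0.93 ± 0.35 (adjusted p 0.21, edgeR). AKR1C2 had 33 counts with atRAL plus vesicles against 59 with atRAL, and 22 with vesicles against 39 in the control, with a log2 fold change of -0.81 ± 0.35 (adjusted p 0.27, edgeR). AKR1A1, AKR7A2, CBR1 and CBR3 had log2 fold changes of -0.1, -0.06, 0.12 and 0, with adjusted p of 0.44 to 1 (edgeR).

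**Figure D3:**
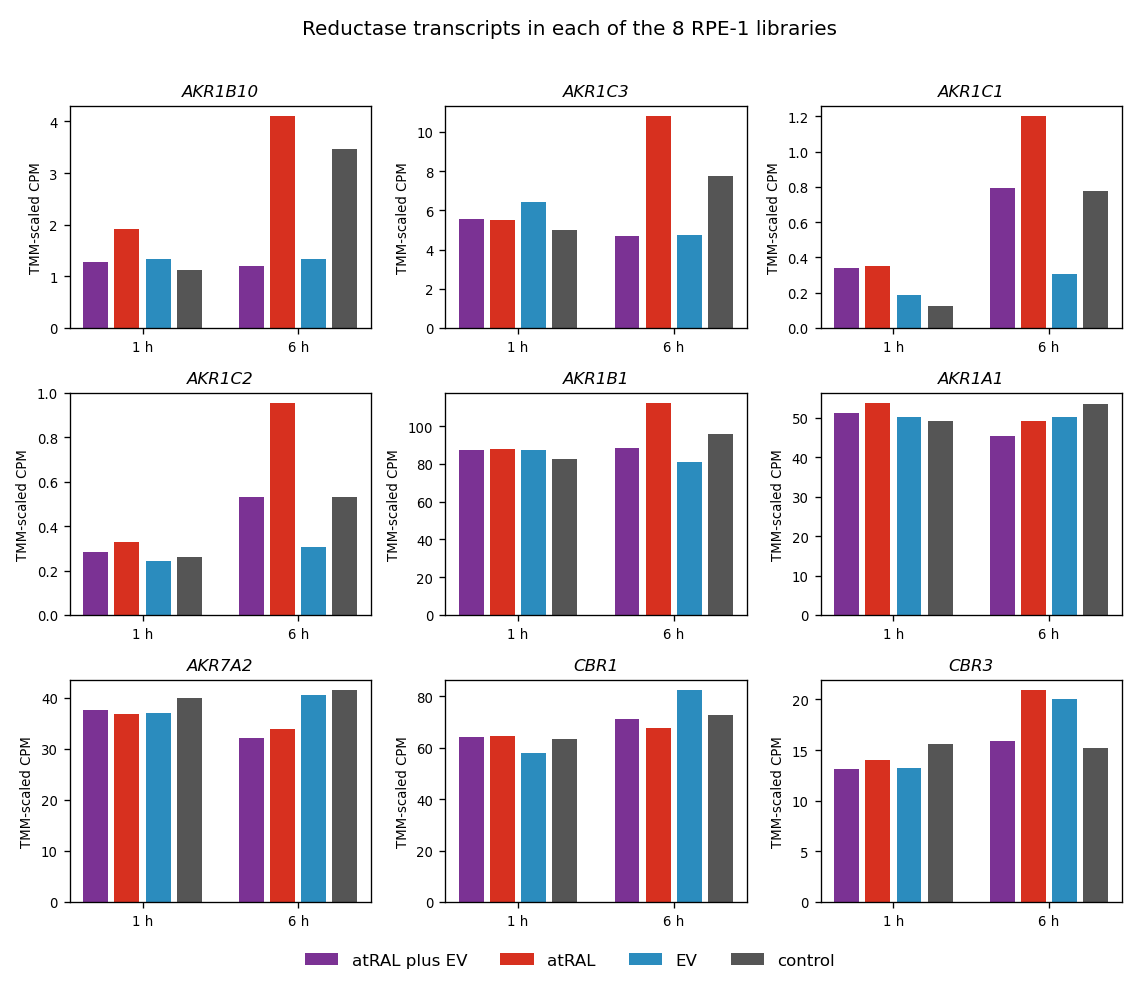
Scaled CPM of each gene in the 8 libraries, 1 panel per gene, with the libraries of each time side by side; each bar is 1 library and no error is drawn because each condition has 1 library. At 6 h AKR1B10 is at 1.19 and 1.33 CPM with vesicles and at 4.1 and 3.47 CPM without.

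At 1 h no reductase gene was called for vesicles, with 0.205% of all genes called, and log2 fold changes ran from -0.18 to 0.22. AKR1B10 had 1.28 CPM with atRAL plus vesicles against 1.91 CPM with atRAL, and 1.34 CPM with vesicles against 1.12 CPM in the control. AKR1C3 had 5.56 CPM with atRAL plus vesicles against 5.52 CPM with atRAL, and 6.42 CPM with vesicles against 4.98 CPM in the control. CBR3 was the 1 gene with both vesicle libraries below both others (18.4% of all genes), and AKR1C3 the 1 gene with both above (17.4%).

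The difference between the vesicle effects at 6 h and at 1 h was tested as an added comparison after the values were seen. It was -1.41 ± 0.36 for AKR1B10 (adjusted p 0.22), -1.13 ± 0.24 for AKR1C3 (adjusted p 0.15) and -0.33 ± 0.10 for AKR1B1 (adjusted p 0.29) on the log2 scale (edgeR). None of the 9 genes was called, and 0.211% of all genes were.

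**Figure D4:**
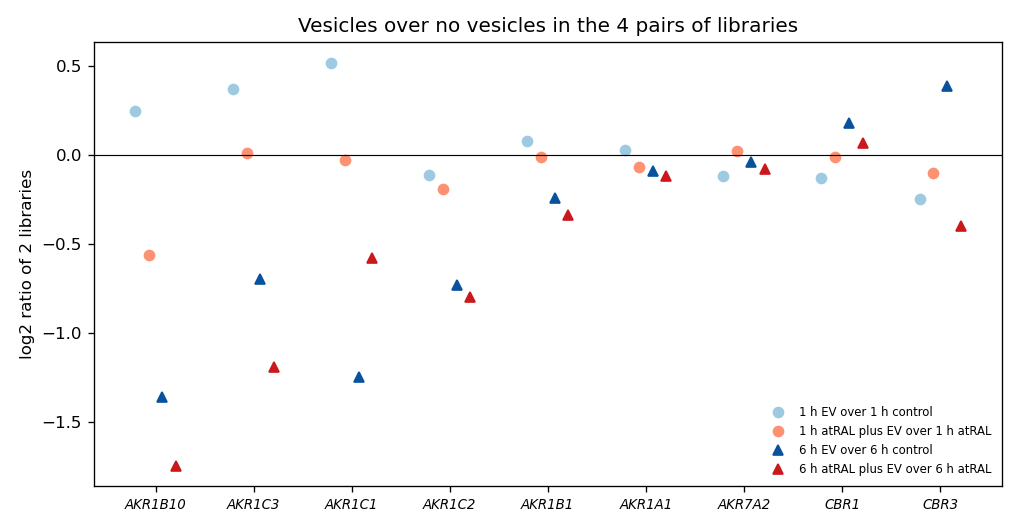
Log2 ratio of the library with vesicles to its partner without, for the 4 pairs of libraries and the 9 genes. At 6 h AKR1B10 is at -1.75 with atRAL and -1.36 without, and at 1 h at -0.56 and 0.25.

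Whether vesicles acted differently with and without atRAL was tested in a model over both times. That model holds each vesicle effect the same at 1 h and 6 h, so any change of it between the times counts as spread. A lack of calls therefore does not show equal vesicle effects with and without atRAL. None of the 9 genes and 0% of all 17044 genes were called at an adjusted p under 0.05 (edgeR). An unadjusted p under 0.05 was seen for 194 genes (1.14%), none of them a reductase. The difference was -0.58 ± 0.67 for AKR1B10 (95% interval -2.2 to 1.04) and -0.43 ± 0.53 for AKR1C3 (95% interval -1.73 to 0.88), with adjusted p of 1 (edgeR).

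The atRAL comparison at 6 h asks which genes differ between libraries with and without the aldehyde. Of the 9 genes, 1 fell, AKR7A2, and 0 rose. Over all genes 14.2% fell, 15.9% rose and 30.2% were called in either direction, and 1 of 9 is not above that background. An unadjusted p under 0.05 was seen for 4 of the 9 genes, as for 41.7% of all genes. The median log2 fold change was 0.06 for the 9 genes and -0.008 for all genes.

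AKR7A2 (chr1:19302708-19312146, minus strand) had 32.1 CPM with atRAL plus vesicles against 40.4 CPM with vesicles, and 33.9 CPM with atRAL against 41.4 CPM in the control at 6 h. Both libraries with atRAL lay below both without. AKR7A2 fell by 0.31 ± 0.08 on the log2 scale (fold 0.807, 95% interval -0.5 to -0.12, adjusted p 0.023, edgeR). Without any one library the adjusted p was 0.052 to 0.071 and the call was lost, as it was from the 6 h libraries alone (0.053).

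AKR1C1 and AKR1C2 had higher values with atRAL in both pairs at 6 h but did not pass. AKR1C1 had 0.791 CPM with atRAL plus vesicles against 0.308 CPM with vesicles, and 1.2 CPM with atRAL against 0.775 CPM in the control (log2 fold change 0.95 ± 0.35, adjusted p 0.078, edgeR). With a minimum count of 50 it was called, at an adjusted p of 0.044. AKR1C2 had 0.533 CPM with atRAL plus vesicles against 0.308 CPM with vesicles, and 0.953 CPM with atRAL against 0.53 CPM in the control (0.82 ± 0.35, adjusted p 0.12, edgeR). Since the 2 genes share much of their sequence, these are not independent readings.

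Both atRAL libraries were below both others for AKR7A2, AKR1A1 and CBR1, 3 of 9 genes, and above for AKR1C1 and AKR1C2, 2 of 9, against 29.9% and 29.8% of all genes. AKR1B1, AKR1C3 and AKR1B10 had log2 fold changes of 0.17, 0.24 and 0.06, and AKR1A1 and CBR1 of -0.13 and -0.16, with adjusted p of 0.12 to 0.87 (edgeR). At 6 h AKR1B10 had 1.19 CPM with atRAL plus vesicles against 1.33 CPM with vesicles, and 4.1 CPM with atRAL against 3.47 CPM in the control.

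CBR3 moved in opposite directions in the 2 pairs. At 6 h it had 15.9 CPM with atRAL plus vesicles against 20 CPM with vesicles, a log2 ratio of -0.33, and 20.9 CPM with atRAL against 15.2 CPM in the control, a log2 ratio of 0.46. Its fitted change was 0.06 ± 0.18 (adjusted p 0.83, edgeR). Without the 6 h atRAL plus vesicle or the 6 h vesicle library it was 0.46, which is only the pair of atRAL and control. The spread in those fits came from the 1 h libraries alone, so they cannot show a rise of CBR3 at 6 h. An antisense gene, CBR3-AS1, overlaps CBR3 on chromosome 21 and had 39 to 81 counts, and whether the counting used strand is not given in the sources used here.

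**Figure D5:**
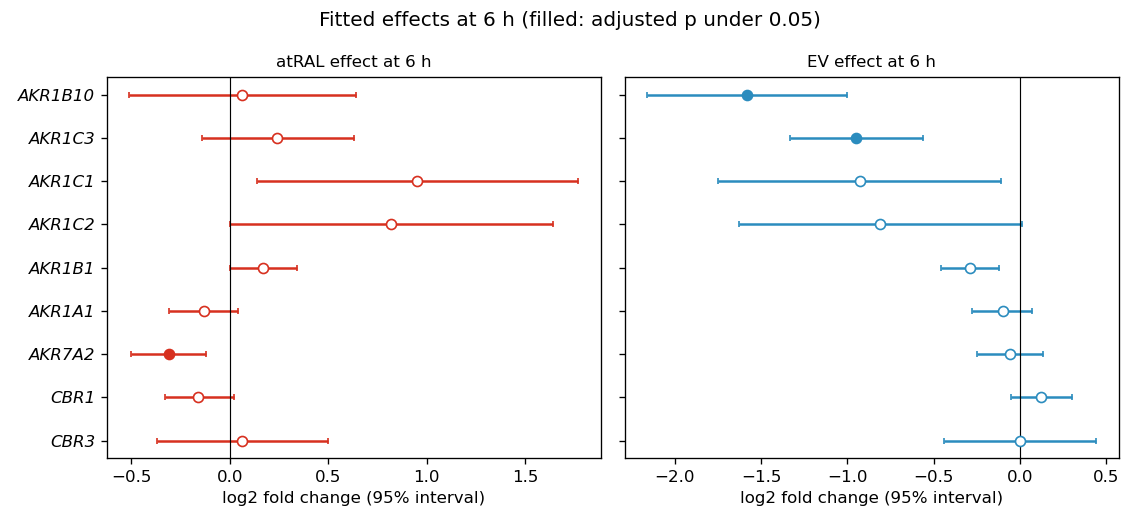
Fitted log2 fold changes at 6 h with 95% intervals for the 9 genes, for atRAL and for vesicles, with filled points for an adjusted p under 0.05. For vesicles AKR1B10 (-1.58) and AKR1C3 (-0.95) are filled, and for atRAL AKR7A2 (-0.31).

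At 1 h no reductase was called for atRAL, with 0.00587% of all genes called, and log2 fold changes ran from -0.08 to 1.14. The highest was that of AKR1C1, at 0.342 CPM with atRAL plus vesicles against 0.189 CPM with vesicles, and 0.35 CPM with atRAL against 0.123 CPM in the control, on 7 to 24 counts. Its change was 1.14 ± 0.46 with an adjusted p of 1 (edgeR). Both atRAL libraries lay above both others in 5 of the 9 genes (AKR1A1, AKR1B1, AKR1C1, AKR1C2 and CBR1), against 13.8% of all genes. Margins could be small, as for AKR1B1, with 87.9 and 87.5 CPM with atRAL against 82.5 and 87.3 CPM without. CBR1 had 64.5 and 64.3 CPM against 63.5 and 58.1 CPM. AKR1C1 and AKR1C2 are not independent readings. The difference between the atRAL effects at 6 h and 1 h was called for none of the 9, ranged from -0.28 to 0.54 with a smallest adjusted p of 0.17 (edgeR), and was called for 13.4% of all genes.

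Genes with related roles were set beside the 9, from lists compiled with earlier results of these data known. Of 26 NRF2 targets outside the reductases, 23 rose and 0 fell with atRAL at 6 h, against 15.9% and 14.2% of all genes. The median log2 fold change was 0.64 for the list and -0.008 for all genes. HMOX1, which degrades haem, had 315 FPKM with atRAL plus vesicles against 17.4 FPKM with vesicles, and 656 FPKM with atRAL against 19 FPKM in the control, a log2 fold change of 4.69 ± 0.3. The cystine transporter gene SLC7A11 rose by 3.02, OSGIN1 by 2.35 and the autophagy receptor gene SQSTM1 by 2.24 on the log2 scale, with adjusted p of 1e-05 to 0.025 (edgeR). Leaving out any one library left 16 to 22 of the 26 called.

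Of 7 NRF2 pathway regulators, 5 rose with atRAL at 6 h (15.9% of all genes rose). They were led by the small MAF genes MAFF (1.79) and MAFG (1.78). Then came NFE2L2, which encodes NRF2 (0.88), and BACH1, a repressor at the same elements (0.81). MAFG is also counted among the NRF2 targets above, so the lists share a gene. Of 21 other carbonyl and quinone reductases, 7 rose and 4 fell, against 15.9% and 14.2% of all genes. The retinol dehydrogenase genes DHRS3 (1.98 ± 0.18) and RDH10 (1.02 ± 0.08) rose, and DHRS9 fell (-2.01 ± 0.21), with adjusted p of 0.00016 to 0.0011 (edgeR). RDH12, which reduces all-trans-retinal in photoreceptors, had 11 counts with atRAL plus vesicles and 28 counts with atRAL alone at 6 h, and 0 counts in the other 6 libraries. It is counted among the 7, but it passed the filter on low counts only through the libraries in which it was high, so its test supports nothing. Leaving out any one library left 8 to 10 of the 21 called.

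With vesicles at 6 h, 1 of the 26 NRF2 targets rose (UGDH, 0.45) and 2 fell (SLC48A1, -0.65, and EPHX1, -0.57), and the median was -0.29, the same as that of the 9 reductases. Over all genes 1.09% rose and 0.61% fell. Each of these 3 calls was lost without any one of the 1 h libraries, and over the 8 fits that leave out a library 0 to 17 of the 26 were called. None of the 21 other carbonyl and quinone reductases was called for vesicles at 6 h, and 0 to 4 were over the fits that leave out a library. Of 11 other members of the 2 families 5 were tested, and none was called in any of the 7 planned comparisons.

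Time was compared between the 6 h and the 1 h libraries without atRAL. The model has 1 vesicle term for both times, so a vesicle effect that differs between the times counts as spread. Genes such as AKR1B10 and AKR1C3 are then harder to call. None of the 9 genes was called, against 1.72% of all genes. All 9 fitted changes lay above 0, from 0.05 to 1.7 on the log2 scale, with a median of 0.3 against 0.005 over all genes. Single pairs did not all rise. The log2 ratio was -0.04 for CBR3 in the control, and -0.11 for AKR1B1, -0.01 for AKR1B10 and -0.43 for AKR1C3 with vesicles. AKR1C1 had the highest fitted change (1.7 ± 0.52, adjusted p 0.13, edgeR). It had 0.308 CPM with vesicles and 0.775 CPM in the control at 6 h, against 0.189 CPM with vesicles and 0.123 CPM in the control at 1 h. CBR1 had 82.3 CPM with vesicles and 72.9 CPM in the control at 6 h, against 58.1 CPM with vesicles and 63.5 CPM in the control at 1 h (0.35 ± 0.09, adjusted p 0.092, edgeR). DESeq2 called CBR1, at 0.34 with an adjusted p of 0.023, and edgeR called it without the 6 h atRAL library (0.04) or the 6 h atRAL plus vesicle library (0.042).

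The time pairs of AKR1B10 and AKR1C3 split by vesicles. AKR1B10 at 6 h over 1 h had a log2 ratio of -0.1 with atRAL plus vesicles, 1.09 with atRAL, -0.01 with vesicles and 1.6 in the control. AKR1C3 had -0.24 with atRAL plus vesicles, 0.96 with atRAL, -0.43 with vesicles and 0.63 in the control. In both genes the libraries without vesicles were higher at 6 h than at 1 h, and those with vesicles were about level or lower.

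The genes whose log2 CPM followed that of a called reductase most closely over the 8 libraries are given as a description, since the libraries share treatments. For AKR1B10 they were SNRPN (Pearson r 0.966), ZNF862 (0.964) and MAN2B2 (0.96). For AKR1C3 they were MMP2 (0.977), ARL6IP1 (0.966) and LMAN2L (0.952), and for AKR7A2 they were SAC3D1 (0.983), DOK1 (0.98) and ISOC2 (0.979).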

How the data were processed

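RNA was sequenced from 8 libraries with 1 per condition. The deposited table, per the file headers, gives raw read counts and FPKM per gene for each library. The submitters' processing notes name HISAT2 2.1.0, StringTie 2.1.3b and GRCh38 without roles. Which counter, annotation, filters and strand setting were used is not stated in them. The table's 8 TPM columns were not used.

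Counts were tested with edgeR 4.0.16 (quasi-likelihood, robust, TMM scaling) in R 4.3.3, with Benjamini-Hochberg adjustment over all 17044 genes that passed filterByExpr (minimum count 10). The other 29383 genes were left out. Effects of atRAL and EV were fitted within each time (2 residual degrees of freedom), the EV by atRAL difference over groups of time and atRAL (2), and the time effect with 1 EV term (3). Planned comparisons were 7, and 1 was added. Named genes were all 9 members, up to 4 called members of each list with the largest change, and the 3 genes most like each called member. Members and lists were chosen with earlier results of these data known. Alternatives were other scalings and filters, DESeq2 1.42.0, limma 3.58.1 on log2(FPKM + 1), leaving out each library, and single times. Intervals and depth cover counting and library spread only.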

Additional observations from a re-analysis of the deposited data

How the results depend on the processing

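With 1 library per condition, each effect rests on 2 libraries against 2, and the residual spread on 2 or 3 degrees of freedom. To these the edgeR tests add information on spread from other genes. Genes with few counts, such as AKR1C1 and AKR1C2, can show only large changes. No paired analysis was possible because each condition has 1 library and the labels carry no replicate numbers. Of 583 alternative values for 40 reductase results, 511 kept direction and side of the threshold, 27 lost a call, 12 gained one and 33 changed sign. Many of these values could hardly change, since leaving out a library of 1 time barely alters an atRAL or EV effect within the other. Leaving out a library also leaves such an effect within its own time to only a pair of libraries. The spread then comes from the other time, so calls in those fits are not support. The other scalings moved the median log2 fold change of all genes by -0.038 to 0.03.

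The cause of the changes below was not tested. For atRAL at 6 h, reductases called were 1 (AKR7A2) and 0 from the 6 h libraries alone. With a minimum count of 50 they were 2 (AKR7A2 and AKR1C1), and AKR1C2 was then not tested. AKR7A2 was not called without any one library. For atRAL at 1 h, genes called were 1, against 4 with relative log expression scaling, 0 with totals, no filter or limma, 5 with a minimum count of 50, 24 with DESeq2, 27 from the 1 h libraries alone and 0 to 49 without one library. For the difference of the atRAL effects they were 2286, against 1342 with no filter, 1224 with limma and 200 to 3743 without one library (reductases 0 to 1).

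For EV at 6 h, genes called were 290, against 49 with no filter, 544 with a minimum count of 50, 708 with DESeq2, 34 with limma, 54 from the 6 h libraries alone and 20 to 1918 without one library. Reductases called were 2, against 0 with no filter, limma or the 6 h libraries alone and 0 to 3 without one library. For EV at 1 h they were 35, against 107 with DESeq2, 134 from the 1 h libraries alone and 1 to 194 without one library. For EV with minus without atRAL they were 0, and 0 to 127 without one library. For the added EV difference they were 36, against 4 with no filter, 58 with a minimum count of 50, 211 with DESeq2, 2 with limma and 0 to 1165 without one library (reductases 0 to 2). For time they were 294, against 183 with totals, 109 with no filter, 1222 with DESeq2, 31 with limma and 0 to 1332 without one library; reductases were 0, 1 with DESeq2 and 0 to 1 without one library.

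Signs changed in limma for AKR7A2 with EV at 1 h (0.03). Without one library, log2 ranges that crossed 0 were, for atRAL at 6 h, AKR1B10 -0.15 to 0.24, AKR1C3 -0.01 to 0.48 and CBR3 -0.33 to 0.46. For atRAL at 1 h they were AKR1B10 -0.07 to 0.76, AKR1C3 -0.22 to 0.15 and AKR7A2 -0.12 to 0.02, and for its difference AKR1B10 -0.71 to 0.13. For EV they were, at 1 h, AKR1B10 -0.56 to 0.27 and AKR7A2 -0.1 to 0.03, at 6 h CBR3 -0.4 to 0.39, for the added difference AKR7A2 -0.09 to 0.05, and with minus without atRAL AKR1B10 -1.45 to 0.22 and AKR1C3 -1 to 0.18. For time, AKR1C3 ran from -0.4 to 0.61.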

Other observations

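The regulator gene MAFF, a small MAF protein without an activation domain, rose with vesicles at both times, by 0.93 ± 0.09 on the log2 scale at 1 h (adjusted p 0.0086) and 0.62 ± 0.09 at 6 h (adjusted p 0.024, edgeR). The 1 h call of MAFF was lost without any one of the 1 h libraries, and the 6 h call without any one of the 1 h libraries, the 6 h atRAL library or the 6 h atRAL plus vesicle library. In libraries without atRAL, MAFF fell at 6 h relative to 1 h (-1.88 ± 0.12, adjusted p 0.0039, edgeR), while the retinol dehydrogenase gene DHRS9 rose (1.32 ± 0.23, adjusted p 0.041, edgeR). DHRS9 had 207 counts with atRAL plus vesicles, 128 counts with atRAL, 848 counts with vesicles and 706 counts in the control at 6 h. Of the 26 NRF2 targets, 12 had a larger atRAL effect at 6 h than at 1 h (4 to 19 without one library), led by HMOX1, with a difference of 4.49 ± 0.39 (adjusted p 0.0086, edgeR), which was not called without any one of the 1 h libraries. The MAFF call over time was lost without the 1 h control, the 1 h vesicle or the 6 h vesicle library, and the DHRS9 call over time without any one of the 4 libraries compared.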
